A study of Mus musculus with 6 samples.

Results

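The 8 genes described here encode receptors for chemoattractants that are not chemokines: C3ar1, C5ar1 and C5ar2 for fragments of complement, Fpr1 and Fpr2 for formylated peptides, Cmklr1 for chemerin, Ltb4r1 for leukotriene B4 and Ptafr for platelet activating factor. They were chosen by name, with the difference between the groups already known, and are 8 of the 22962 genes in the table. Their levels and differences are therefore given as a description, with no test. RNA was sequenced from alveolar macrophages, the phagocytes of the air spaces, of C57BL/6 mice given saline (the control, 3 libraries, replicates 1, 2 and 3) or bleomycin (the fibrosis model, 3 libraries, replicates 1, 2 and 5) through the trachea. Bleomycin is a DNA-breaking drug that injures the lung and leads to scarring. The lungs were lavaged 2 weeks later, red cells were lysed, and the remaining cells were plated for 30 minutes in medium with 10% serum, washed and lysed on the plate. The labels give neither the age and sex of the mice nor whether each library came from a separate mouse, so errors measure the spread between these libraries, part of which may be technical. The cells were obtained by adherence and not by a sort, so that other adherent cells of the lavage were not removed by a marker.

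These receptors cross the membrane 7 times and, apart from C5ar2, signal mainly through inhibitory G proteins (Gi), which drive migration, calcium release and the oxidative burst of phagocytes. Ptafr also couples to Gq. C3a and C5a are released when complement is cut, formylated peptides come from bacteria and from mitochondria of broken cells, chemerin is activated by proteases, and leukotriene B4 and platelet activating factor are lipids made by activated leukocytes. Alveolar macrophages use such receptors to sense injury and infection in the air spaces.

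Levels below are normalized read counts (reads of a gene divided by a size factor for each library). Differences are bleomycin minus saline on the log2(value + 1) scale, ± SE from a limma fit across all tested genes. Of the 8 receptors, 3 (C3ar1, Cmklr1 and Ltb4r1) were higher in every bleomycin library than in every saline library, 4 (C5ar1, C5ar2, Fpr1 and Fpr2) were lower in every bleomycin library, and the groups overlapped for Ptafr. Over the 13512 genes tested, 17.2% were higher in every bleomycin library and 13.6% were lower in every one. By limma at an adjusted p under 0.05, 9.76% of the tested genes were called higher and 3.90% lower, 13.7% in either direction. The log2 differences of the 8 receptors ran from -1.35 (Fpr2) to 6.48 (Cmklr1). Their median was 0.47, beside a median of -0.01 over all tested genes. All 8 passed the filter on low values, which asked for a normalized read count of 10 or more in 3 or more libraries. For Cmklr1 and Ltb4r1 it was met mainly through the bleomycin libraries, because in saline 1 library of Cmklr1 and 2 of Ltb4r1 reached that value.

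To show the sequence ahead of receptors that differed in opposite directions, the 250 bases before the RefSeq gene start are printed below for C3ar1 and Cmklr1 (higher after bleomycin) and for C5ar1 and Fpr2 (lower). They are given 5′ to 3′ on the strand of the gene, build GRCm38.p6. Capitals mark a match to 1 of 6 motifs, searched on both strands: PU.1 (GAGGAAGT), AP-1 (TGANTCA), C/EBP (TTGCNNAA), E-box (CACGTG), IRF (GAAANNGAA) and RUNX (TGTGGT). C3ar1 lies on chr6:122856158-122856407 (minus strand), Cmklr1 on chr5:113643604-113643853 (minus strand, inside the longer Ensembl gene), C5ar1 on chr7:16259339-16259588 (minus strand) and Fpr2 on chr17:17887574-17887823 (plus strand). The Ensembl gene of C5ar1 reaches base 16259540, so most of the C5ar1 stretch, with its IRF match, lies inside that gene.
C3ar1: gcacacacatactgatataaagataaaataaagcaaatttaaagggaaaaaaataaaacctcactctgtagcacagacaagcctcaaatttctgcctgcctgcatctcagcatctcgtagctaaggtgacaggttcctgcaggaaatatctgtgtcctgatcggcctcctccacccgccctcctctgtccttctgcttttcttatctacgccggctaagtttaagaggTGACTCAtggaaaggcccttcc
Cmklr1: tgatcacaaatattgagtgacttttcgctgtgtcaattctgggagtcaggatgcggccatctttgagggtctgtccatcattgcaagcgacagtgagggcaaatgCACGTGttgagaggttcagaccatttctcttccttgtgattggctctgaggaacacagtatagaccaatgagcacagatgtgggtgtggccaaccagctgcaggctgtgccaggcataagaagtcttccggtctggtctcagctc
C5ar1: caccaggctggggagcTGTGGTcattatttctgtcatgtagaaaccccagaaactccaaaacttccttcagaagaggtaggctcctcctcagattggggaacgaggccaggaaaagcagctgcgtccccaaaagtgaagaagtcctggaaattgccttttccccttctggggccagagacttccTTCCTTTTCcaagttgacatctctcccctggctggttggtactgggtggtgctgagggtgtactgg
Fpr2: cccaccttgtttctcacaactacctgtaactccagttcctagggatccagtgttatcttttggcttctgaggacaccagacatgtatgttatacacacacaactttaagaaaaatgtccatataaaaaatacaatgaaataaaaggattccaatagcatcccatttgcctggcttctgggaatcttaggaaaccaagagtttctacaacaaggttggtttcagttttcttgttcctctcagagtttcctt

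The motif search covered 300 bases a gene, from 250 before to 50 after the RefSeq start, and all 8 receptors had an entry (9 windows, because C5ar2 has 2). C3ar1 held the AP-1 letters 22 bases before its start, in a window type in which 7.81% of 32851 mouse promoters hold them. Cmklr1 held the E-box letters 145 bases before its start (7.15% of promoters). C5ar1 held the IRF letters at 66 bases (8.56%) and the RUNX letters at 234 bases before its start (16.8%). Fpr2 held the RUNX letters 34 bases after its start, outside the stretch printed above. Ltb4r1 had the RUNX letters at 222 and 6 bases before its start and the PU.1 letters at its first base (3.20% of promoters), and 1 of the C5ar2 windows had the C/EBP letters at 210 and 166 bases before its start (10.8%). The windows of Fpr1 and Ptafr, and the other C5ar2 window, held none of the 6. No motif was shared by all receptors that were higher or by all that were lower. RUNX was found on both sides, in Ltb4r1 as well as in C5ar1 and Fpr2. These are matches of letters and describe the windows only.

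The libraries held 27654799 to 37147983 reads, and 3 reads corresponded to a normalized read count of 2.59 to 3.30. The cell type label was checked against resident alveolar macrophage markers: Siglecf, a sialic acid receptor of these cells, was at 16187, 12651 and 14902 in saline and 8182, 7729 and 7228 after bleomycin, and of 13 such markers 8 were lower, 1 (Ctsd) higher and 4 not called by limma. In these bulk samples fewer cells of a type and less RNA per cell cannot be told apart. Most called markers of other cells were higher after bleomycin, but Cd2 of the T cell list and Epcam of the epithelial list were lower. Several of those called higher, Cd3e and Cd8a among them, reached the filter value of 10 only in bleomycin libraries. Such genes could only be called higher. The summed value of 10 monocyte markers was 25129 to 31118 in saline and 39094 to 41082 after bleomycin (5 of 9 tested called higher, 0 lower). That of 10 neutrophil markers was 2580 to 4251 and 5755 to 6681 (3 of 7 tested higher, 0 lower). The neutrophil markers called higher were Mmp8, Cxcr2 and S100a8. S100a9, Lcn2, Ltf and Csf3r were not called, and their group means were lower after bleomycin. These means were 172, 114, 40.4 and 1249 in saline and 37.9, 56.3, 26.6 and 1125 after bleomycin. For S100a9 and Lcn2 the saline mean rested mainly on saline replicate 2 (503 and 319). Mpo, the myeloperoxidase of neutrophil granules, was at 0 in every saline library and at most 3.30 after bleomycin. Over all listed genes, the T cell sum was lower in every bleomycin library (12848 to 15596 in saline, 7719 to 10910 after bleomycin), and so was the epithelial sum (5807 to 6943, then 4411 to 4827). Cd2, at 12808 to 15559 in saline and 7042 to 10710 after bleomycin, made up most of the former (log2 difference -0.74 ± 0.17, limma adjusted p = 0.0229). Epcam fell from 4871, 4280 and 3983 to 1965, 1154 and 1160.2 (-1.66 ± 0.21, limma adjusted p = 0.00135). Both genes, like the other listed genes with a saline mean of 500 or more, are left out of the sums that follow. Monocyte markers were then at 415 to 1510.2 in saline and 3522 to 6676 after bleomycin, and neutrophil markers at 462 to 1519 and 1946 to 2251. The summed dendritic cell markers were at 307 to 678 in saline and 1188 to 2627 after bleomycin, and T cell markers at 23.9 to 40.2 and 199 to 677. Natural killer cell markers were at 7.61 to 18.0 and 47.6 to 102, B cell markers at 6.36 to 8.83 and 34.1 to 459, and mast cell or basophil markers at 6.36 to 36.3 and 113 to 263. Most of this last sum was Kit, at 35.3, 12.0 and 6.36 in saline and 110, 214 and 260 after bleomycin. Cpa3 was at most 4.35 in any library, and Tpsb2 at most 3.26 in saline and 0 after bleomycin. Epithelial markers were at 119 to 280.0 and 725 to 1652, and fibroblast markers at 35.3 to 321 and 214 to 849, the latter overlapping. The 2 eosinophil markers summed in this way reached at most 5.88, and the third, Ear6, was at 345 to 684 and 229 to 424 (limma adjusted p = 0.117). The part of these cells in the differences of the receptors was not tested.

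C3ar1 and Cmklr1 differed most between the groups. C3ar1 (ENSMUSG00000040552, chr6:122847138-122856161), the receptor for C3a, was at 89.2, 28.2 and 80.6 in saline replicates 1, 2 and 3 and at 1495, 3425 and 3309 in bleomycin replicates 1, 2 and 5. Its lowest bleomycin value thus lay far above its highest saline value, and bleomycin replicate 1 was the low one of its group. The group means were 66.0 ± 33.0 and 2743 ± 1082 (SD, n = 3 each), a log2 difference of 5.42 ± 0.46, or 42.9-fold on this scale. The saline value of replicate 2 rested on 26 reads.

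C5ar1 (ENSMUSG00000049130, chr7:16246743-16259540), the signalling receptor for C5a, was among the most abundant of the 8 in both groups. It was at 15482, 15729 and 21103 in saline and at 13582, 13396 and 11840.0 after bleomycin. The groups did not overlap, yet saline replicate 3 stood above its companions and accounted for part of the gap between the means. The means were 17438 ± 3176 and 12939 ± 957, a log2 difference of -0.42 ± 0.15 (1.34-fold lower after bleomycin), and -0.27 without saline replicate 3.

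C5ar2 (ENSMUSG00000074361, chr7:16234585-16244154) encodes a second C5a receptor that does not couple to G proteins and is known to bind arrestin. It was at 782, 864 and 767 in saline and 569, 572 and 527 after bleomycin. This was the tightest of the 8 genes, with a coefficient of variation of 6.50% in saline and 4.57% after bleomycin. The means were 804 ± 52.3 and 556 ± 25.4, a log2 difference of -0.53 ± 0.12 (1.44-fold lower). C5ar2 and C5ar1 lie next to each other on the same strand, 2588 bases apart, and their coding sequences were 59.3% identical over aligned bases, with no identical run longer than 11 bases. A small nuclear RNA gene (Gm26473) overlaps 127 bases of the C5ar2 exons on the same strand.

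The 3 complement receptors thus parted: the C3a receptor was higher after bleomycin and both C5a receptors were lower. Within each library the level of C5ar1 per kilobase of exon was 291, 933 and 439 times that of C3ar1 in saline and 15.2, 6.55 and 5.99 times after bleomycin. The same ratio of C5ar1 to C5ar2 was 27.4, 25.2 and 38.1 in saline and 33.1, 32.4 and 31.1 after bleomycin, and for this pair the groups overlapped.

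**Figure D1:**
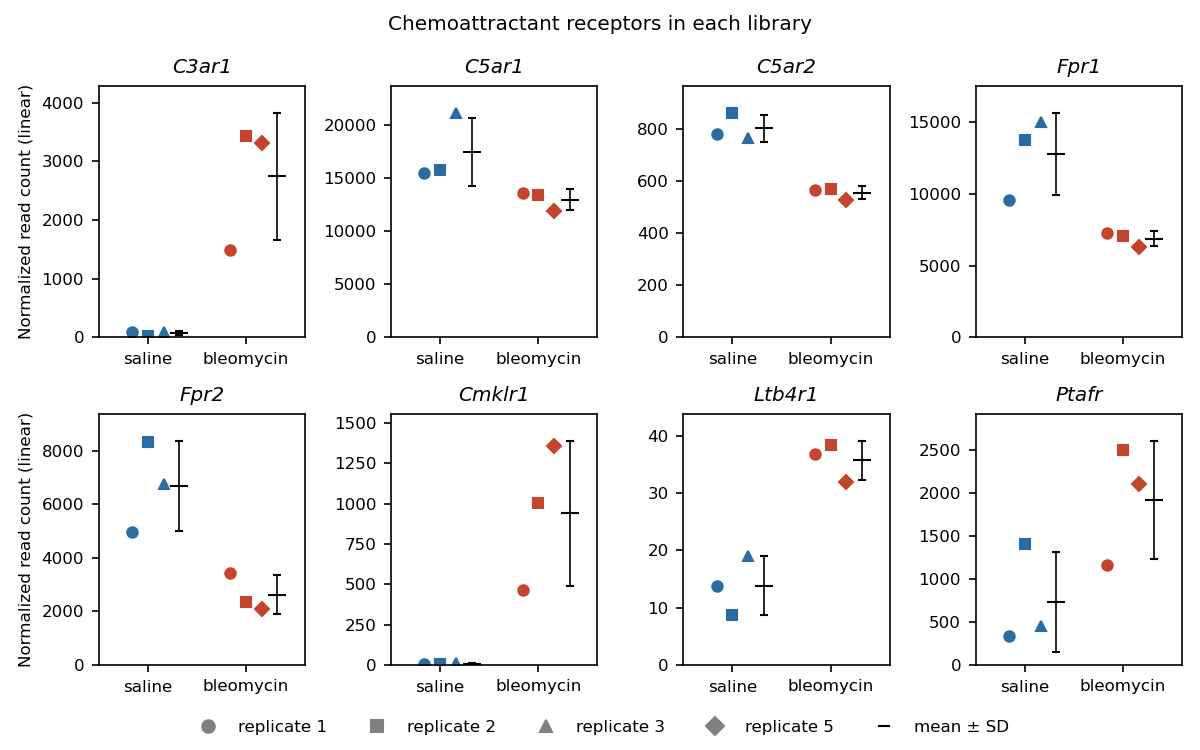
Normalized read count (linear axis from 0, a separate scale in each panel) of the 8 receptors in 3 saline and 3 bleomycin libraries. Coloured points are libraries, with the replicate number as the shape, and black marks are group means with SD; C3ar1 and Cmklr1 lay near the axis in saline libraries, C5ar1, C5ar2, Fpr1 and Fpr2 were lower in every bleomycin library, and saline replicate 2 of Ptafr (1407) lay above bleomycin replicate 1 (1159.7).

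Both formyl peptide receptors were lower after bleomycin. Fpr1 (ENSMUSG00000045551, chr17:17876471-17883940), the high-affinity receptor for bacterial and mitochondrial formylated peptides, was at 9568, 13771 and 15053 in saline and at 7277, 7089 and 6308 after bleomycin. Saline replicate 1 was the lowest of its group but still above every bleomycin library. The means were 12797 ± 2869 and 6891 ± 514, a log2 difference of -0.87 ± 0.17 (1.83-fold lower).

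Fpr2 (ENSMUSG00000052270, chr17:17887824-17893952) encodes a receptor of broader ligand range that also binds annexin A1, serum amyloid A and cathelicidin. It was at 4984, 8354 and 6765 in saline and at 3452, 2345 and 2094 after bleomycin. The groups did not overlap, and replicate 1 was closest to the other group on both sides, the lowest in saline and the highest after bleomycin. The means were 6701 ± 1686 and 2630.2 ± 723, a log2 difference of -1.35 ± 0.23 (2.55-fold lower), the most negative of the 8. Per kilobase of exon, Fpr1 was 1.88, 1.61 and 2.18 times Fpr2 in saline and 2.06, 2.96 and 2.95 times after bleomycin. This ratio overlapped between the groups, because bleomycin replicate 1 (2.06) lay below saline replicate 3 (2.18).

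Fpr1 and Fpr2 lie 3883 bases apart on opposite strands. The level of Fpr2 is uncertain where reads could have come from its near copy Fpr3, whose coding sequence is 88.1% identical to that of Fpr2 with an identical run of 94 bases, and whose exons overlap 48 bases of Fpr2 exons. Fpr3 itself was at 0.981 in saline replicate 1, at 1.10 in bleomycin replicate 2 and at 0 in the other libraries, which is 1 read in each of 2 libraries. Fpr1 and Fpr2 coding sequences were 70.4% identical, with a longest identical run of 50 bases.

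Cmklr1 (ENSMUSG00000042190, chr5:113612354-113650426), the signalling receptor for chemerin, was close to the floor in saline libraries, at 6.86, 8.69 and 10.6, and at 463, 1004 and 1355 after bleomycin. Every bleomycin library lay far above every saline library, and bleomycin replicate 1 was again the lowest of its group. The saline values rested on 7, 8 and 10 reads, against 515, 914 and 1572 reads after bleomycin. The means were 8.72 ± 1.87 and 941 ± 449.6, a log2 difference of 6.48 ± 0.39. That is 89.4-fold on the log2(value + 1) scale, which understates the change of low genes, and the ratio of the group means was 108.

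Ltb4r1 (ENSMUSG00000046908, chr14:55765962-55768494), the high-affinity leukotriene B4 receptor, was low in both groups, at 13.7, 8.69 and 19.1 in saline and 36.8, 38.5 and 31.9 after bleomycin. The groups did not overlap, but they rested on 40 and 113 reads over 3 libraries each. The means were 13.8 ± 5.20 and 35.7 ± 3.42, a log2 difference of 1.37 ± 0.38 (2.58-fold). With quantile normalization in place of the authors' scaling this difference was 0.85.

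Ptafr (ENSMUSG00000056529, chr4:132564067-132582683), the receptor for platelet activating factor, was at 339, 1407 and 456 in saline and at 1159.7, 2501 and 2105 after bleomycin. Saline replicate 2 was above bleomycin replicate 1, so the groups overlapped, and the saline coefficient of variation of 79.8% was the highest of the 8 genes. The means were 734 ± 586 and 1922 ± 689, a log2 difference of 1.60 ± 0.50 (3.03-fold), and 2.21 without saline replicate 2. That library also stood apart in genes picked out after their values were seen: S100a9, an alarmin of neutrophils and monocytes, was at 4.90, 503 and 7.42 in saline replicates 1, 2 and 3. Hp, the haptoglobin gene, was at 82.4, 1071 and 119 in the same libraries. The part of saline replicate 2's other RNA in its Ptafr level was not tested.

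Libraries of a group did not vary alike for all receptors. After bleomycin, replicate 1 was the lowest for C3ar1, Cmklr1 and Ptafr, with highest-to-lowest ratios of 2.29, 2.93 and 2.16 in the group, and was the highest of the group for Fpr1, Fpr2 and C5ar1. Without markers of high saline level, the same library had the lowest sums of its group for monocytes (3522, against 5033 and 6676), T cells, B cells, natural killer cells, dendritic cells and epithelial cells. It then had the highest for neutrophils (2251, against 1946 and 2018) and fibroblasts (849, against 214 and 668). Over all listed genes 4 of these sums went the other way. This library was then the highest for monocytes (41082, against 39094 and 40649.6) and T cells (10910, against 7954 and 7719). It was also the highest for epithelial cells (4827, against 4411 and 4567) and the lowest for neutrophils (5755, against 6681 and 5890). The part of these cells in the spread of the receptors was not tested.

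Per kilobase of exon, which allows levels of different genes to be compared, the saline order was Fpr1 (9666 ± 2167), C5ar1 (6785 ± 1236), Fpr2 (5171 ± 1301), C5ar2 (226 ± 14.7), Ptafr (202 ± 161), C3ar1 (15.3 ± 7.67), Ltb4r1 (9.93 ± 3.73) and Cmklr1 (2.56 ± 0.549). The ranges of neighbours overlapped between Fpr1 and C5ar1, C5ar1 and Fpr2, C5ar2 and Ptafr, and C3ar1 and Ltb4r1, so the order of these pairs was not beyond the spread between libraries. Compared within each library, Fpr1 was above C5ar1 and C3ar1 above Ltb4r1 in 3 of 3, whereas C5ar1 was above Fpr2 and C5ar2 above Ptafr in 2 of 3, with saline replicate 2 the exception both times. After bleomycin the order was Fpr1 (5205 ± 388), C5ar1 (5035 ± 372), Fpr2 (2029 ± 558), C3ar1 (637 ± 251), Ptafr (528 ± 189), Cmklr1 (276 ± 132), C5ar2 (156 ± 7.13) and Ltb4r1 (25.6 ± 2.45). There the ranges of Fpr1 and C5ar1 overlapped, and so did those of C3ar1 and Ptafr, Ptafr and Cmklr1, and Cmklr1 and C5ar2. Within each library the order held in 3 of 3 for the first 3 of these pairs and in 2 of 3 for Cmklr1 above C5ar2, which was not so in bleomycin replicate 1. By group means the 3 genes at the top kept their order, although all were lower, while C3ar1, Ptafr and Cmklr1 passed C5ar2.

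Summed over the 8 receptors, the level per kilobase was 17442, 23612 and 25177 in saline and 14433, 14342 and 12903 after bleomycin. Fpr1, C5ar1 and Fpr2 made up most of this sum in every library. The share of Fpr1 was 41.4%, 44.1% and 45.2% in saline and 38.1%, 37.3% and 36.9% after bleomycin, and that of C5ar1 was 34.5%, 25.9% and 32.6%, then 36.6%, 36.3% and 35.7%. Fpr2 went from 22.0%, 27.3% and 20.7% to 18.5%, 12.6% and 12.5%. C3ar1 held 0.119%, 0.0278% and 0.0744% of the sum in saline and 2.41%, 5.55% and 5.96% after bleomycin, and Cmklr1 held 0.0115%, 0.0108% and 0.0124%, then 0.941%, 2.05% and 3.08%. These receptor levels are of RNA, and the amount of each receptor on the cell surface was not measured.

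**Figure D2:**
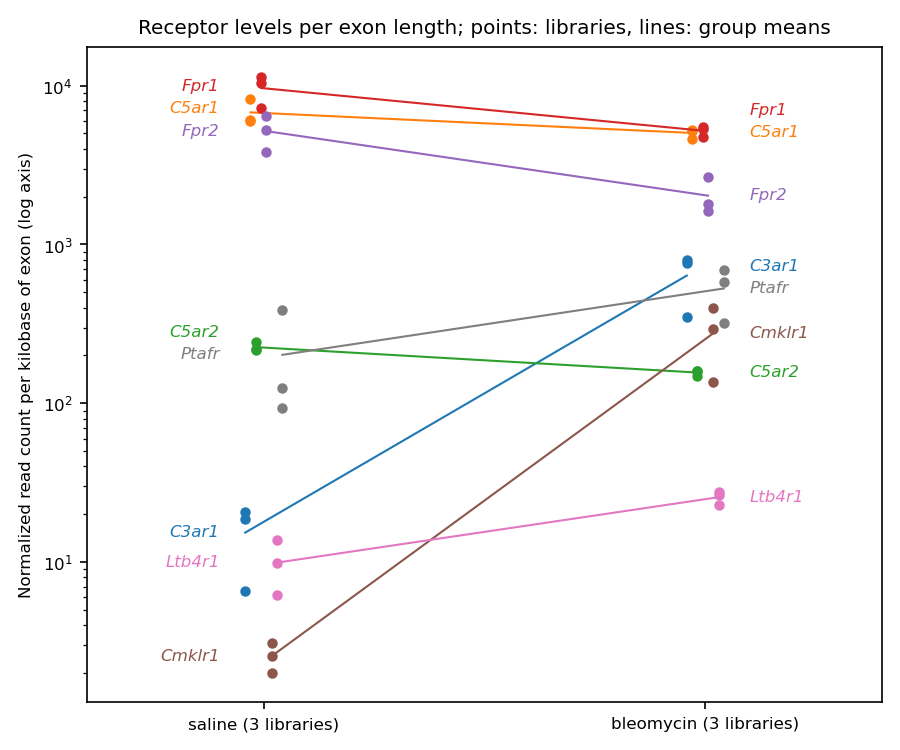
Normalized read count per kilobase of exon (log axis) of the 8 receptors in saline and bleomycin libraries. Points are the 3 libraries of a group and lines join the group means; Fpr1, C5ar1 and Fpr2 stayed at the top (5205, 5035 and 2029 after bleomycin), while C3ar1 went from 15.3 to 637 and Cmklr1 from 2.56 to 276.

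The genes whose pattern over the 6 libraries was most like each receptor were found among 10052 genes with a mean of 100 or more, by the root mean square difference of log2 values centred on each gene's mean. For C3ar1 they were Fcrls (0.19), at 13.7, 4.35 and 17.0 in saline and 255, 752 and 747 after bleomycin, Olfml3 (0.22) and Cacna1d (0.22). For Cmklr1 they were Apoe (0.32), at 2414, 2063 and 2479 in saline and 112162, 183748 and 203688 after bleomycin and Ldhb (0.52). The value is smaller for any gene that varies little, so it ranks genes for 1 receptor and is not compared between receptors. For C5ar1 they were Zfpl1 (0.07), Zwint (0.07) and AI467606 (0.08), for C5ar2 Tkfc, Smagp and Dcakd (0.05 each), and for Fpr1 Sult4a1 (0.10), Parp16 (0.10) and Prrt1 (0.10). For Fpr2 they were Gm9530 (0.12), Krt19 (0.14) and Car4 (0.15), of which Car4 is a marker of resident alveolar macrophages, at 27864, 41101 and 31857 in saline and 19936, 14106 and 12998 after bleomycin. For Ptafr they were Stx11 (0.20), Arl5c (0.20) and Il6 (0.22), the cytokine interleukin 6. Il6 was at 21.6, 94.5 and 26.5 in saline and 82.6, 208 and 201 after bleomycin, with replicate 2 high in saline and replicate 1 low after bleomycin, as for Ptafr. Ltb4r1 had a mean under 100 and was not matched.

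Genes of the ligands were tested with limma, with p-values adjusted over all 13512 tested genes. The counts of called genes in the lists below stand beside shares of 9.76% higher and 3.90% lower over all tested genes. Among genes that make or break anaphylatoxins (the complement fragments C3a and C5a), 10 of 12 listed were in the table and 7 could be tested. Of these 3 rose and 0 fell, with a median log2 difference of 0.32. C4b, a component of the classical pathway, rose from 191, 118 and 53.0 to 347, 1044 and 910.2 (2.69 ± 0.52, limma adjusted p = 0.0104, and 0.0512 without bleomycin replicate 5). Cpm, carboxypeptidase M, which removes the end residue of anaphylatoxins, went from 3 reads over the saline group to 64 over the bleomycin group, a ratio of 19.3 (95% exact binomial counting interval 6.32 to 96.2, which covers counting error only). It rose by limma (adjusted p = 0.00729) and had too few values to be tested without a bleomycin library, so that without bleomycin replicate 5 1 of the list was called. No saline library of Cpm reached the filter value of 10, so Cpm could only be called higher.

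C3, the source of C3a, did not pass the test. It was at 9489.9, 22878 and 7787 in saline and 6214, 10150.2 and 11064 after bleomycin, with saline replicate 2 above the rest, and its log2 difference was -0.43 ± 0.38 (limma adjusted p = 0.565). Cfb, factor B of the alternative pathway, was at 10.8, 103 and 18.0 in saline and 10.8, 13.2 and 18.1 after bleomycin (-0.96 ± 0.75, limma adjusted p = 0.495), also with saline replicate 2 high, and it shares exon sequence with the overlapping gene Gm20547. Hc, the gene of complement C5, did not reach the filter, at 7.84, 0 and 1.06 in saline and 2.69, 3.30 and 11.2 after bleomycin. The RNA of C3 was thus abundant in both groups, and that of C5 was near the limit of detection in these cells.

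Of the formyl peptide receptor ligands and the peptidases that break them, 7 of 9 listed were in the table, 4 were tested, 1 rose and 0 fell (median 1.35). Anpep, aminopeptidase N, rose from 961, 1955 and 695 to 4650.5, 8047 and 8722 (2.65 ± 0.37, limma adjusted p = 0.00231). Anxa1, annexin A1, an anti-inflammatory ligand of Fpr2, was at 13752, 14322 and 16060.3 in saline and at 17649.6, 17192 and 16248 after bleomycin (0.21 ± 0.11, limma adjusted p = 0.274). Saa3, a serum amyloid A named after its values were seen, was at 1.96, 101 and 14.8 in saline and 71.9, 85.7 and 131 after bleomycin (2.48 ± 1.06, limma adjusted p = 0.182), and passed without saline replicate 2 (limma adjusted p = 0.014), when 2 genes of the list were called. Hebp1, also named after its values were seen, had a log2 difference of -0.14 ± 0.17 (limma adjusted p = 0.694). The list median of 1.35 fell between 0.21 and 2.48, where no tested gene of the list lay.

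Chemerin itself, Rarres2, was at 2.12 in saline replicate 3, at 4.39 in bleomycin replicate 2 and at 0 in the other libraries, so the RNA of this ligand was near the limit of detection in both groups. Of the proteases listed as able to cut chemerin, 4 of 4 tested rose (median 1.36). Ctsl, cathepsin L, rose from 9593, 11300.4 and 10445 to 24526, 31109 and 32338 (1.48 ± 0.14, limma adjusted p = 0.00035). Ctss, cathepsin S, rose by 1.24 ± 0.15 (limma adjusted p = 0.00118). Plau, urokinase, rose from 1006, 865 and 1650.1 to 3742, 4141 and 4012 (1.81 ± 0.22, limma adjusted p = 0.00118). The fourth, Ctsk (named after its values were seen), rose by 0.65 ± 0.16 (limma adjusted p = 0.0293), and its call was lost without any 1 of 5 libraries.

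In leukotriene B4 and platelet activating factor metabolism 14 of 14 listed genes were tested, 3 rose and 1 fell (median 0.02). The 3 that rose act on platelet activating factor or related lipids. Lpcat1, a lysophospholipid acyltransferase, rose from 149, 113 and 113 to 663, 1048 and 989.5 (2.82 ± 0.22, limma adjusted p = 0.00017). Lpcat2, the inducible enzyme that acetylates the precursor into platelet activating factor, rose from 266, 989 and 358 to 2147, 2370.0 and 2738 (2.40 ± 0.41, limma adjusted p = 0.00596). Pla2g7, the acetylhydrolase that inactivates it, rose from 359.9, 744 and 763 to 1939, 3674 and 3629 (2.33 ± 0.34, limma adjusted p = 0.00269). The other acetylhydrolase genes listed, Pafah1b1, Pafah1b2, Pafah1b3 and Pafah2, were not called (log2 differences of 0.04, -0.03, -0.47 and 0.35), and neither was the phospholipase gene Pla2g4a (-0.14).

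On the leukotriene side Alox5, the 5-lipoxygenase that starts the pathway, fell from 11606, 9171 and 8719 to 6269, 6453 and 5684 (-0.67 ± 0.13, limma adjusted p = 0.0115, and 0.0758 without bleomycin replicate 5). Lta4h, which makes leukotriene B4, was at 4393, 4393 and 4644 in saline and 3820.4, 3361 and 3188 after bleomycin (-0.38 ± 0.11, limma adjusted p = 0.0552). Alox5ap, the protein that presents the substrate to Alox5, had a log2 difference of 0.09 ± 0.16 (limma adjusted p = 0.789). Without bleomycin replicate 1 the list had 7 called genes, the same 3 higher and 4 lower, Lta4h among the latter (limma adjusted p = 0.0261).

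**Figure D3:**
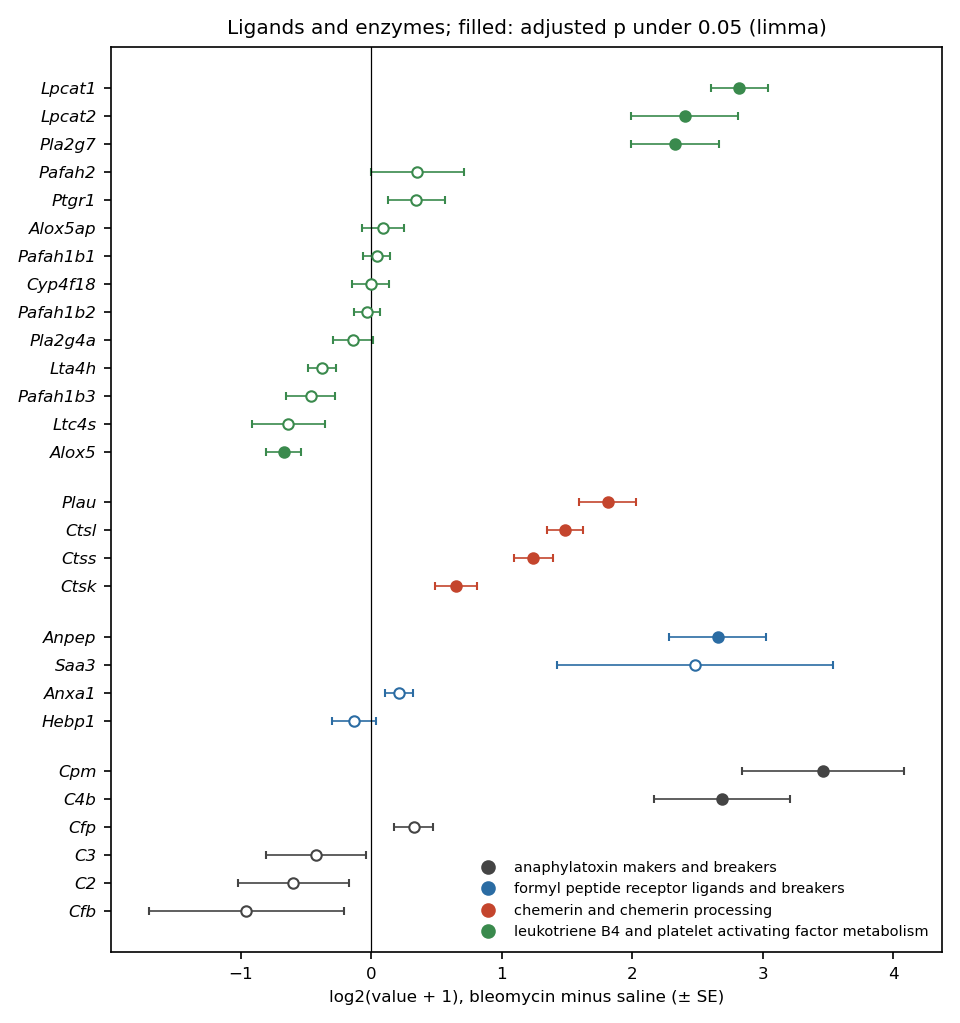
Log2 difference (bleomycin minus saline, ± SE) of tested genes that make, are or break the receptors' ligands, in 4 lists marked by colour. Filled points passed limma's test at an adjusted p under 0.05; Lpcat1, Lpcat2 and Pla2g7 lay to the right of 0 and Alox5 to the left.

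Relatives of the 8 receptors were compared next. Of 13 listed receptors of the same superfamily with related ligands, 8 were in the table and 4 tested, of which 2 rose and 0 fell. Gpr183, a receptor for oxysterols, rose from 4.90, 3.26 and 10.6 to 97.9, 165 and 174 (4.42 ± 0.45, limma adjusted p = 0.000525). Ccrl2, which binds chemerin without known signalling, rose from 2289, 5059.7 and 4140.2 to 5938, 10541 and 8567 (1.16 ± 0.30, limma adjusted p = 0.0371). Its call did not hold when saline replicate 1, saline replicate 3, bleomycin replicate 2 or bleomycin replicate 5 was left out (limma adjusted p up to 0.151), and 1 called gene was left. Ltb4r2, the low-affinity leukotriene B4 receptor, was below the filter, at 10.8, 13.0 and 3.18 in saline and 4.49, 1.10 and 6.90 after bleomycin. Gpr1, the other chemerin receptor, was not analysed here.

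Among chemokine receptors, which guide leukocytes by protein ligands, 20 of 22 listed were in the table and 13 tested, of which 10 rose and 0 fell, with a median of 2.61. The count was 6 without bleomycin replicate 2 or bleomycin replicate 5, when low genes of the list also left the test. Cxcr3 and Cxcr6, named after their values were seen, were at most at 6.86 and 1.09 in saline libraries. They passed the filter only through the bleomycin libraries, so they could only be called higher, and both are among the 10. Cx3cr1, the fractalkine receptor, rose from 12.7, 13.0 and 8.48 to 191, 466 and 578 (4.93 ± 0.42, limma adjusted p = 0.000258). Ccr2, a receptor of recruited monocytes, rose from 222, 172 and 216 to 875, 1437 and 1604 (2.64 ± 0.24, limma adjusted p = 0.000297). In both genes bleomycin replicate 1 was the lowest of its group, as for C3ar1 and Cmklr1. Whether the receptors described here and the chemokine receptors differed from each other as groups was not tested.

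**Figure D4:**
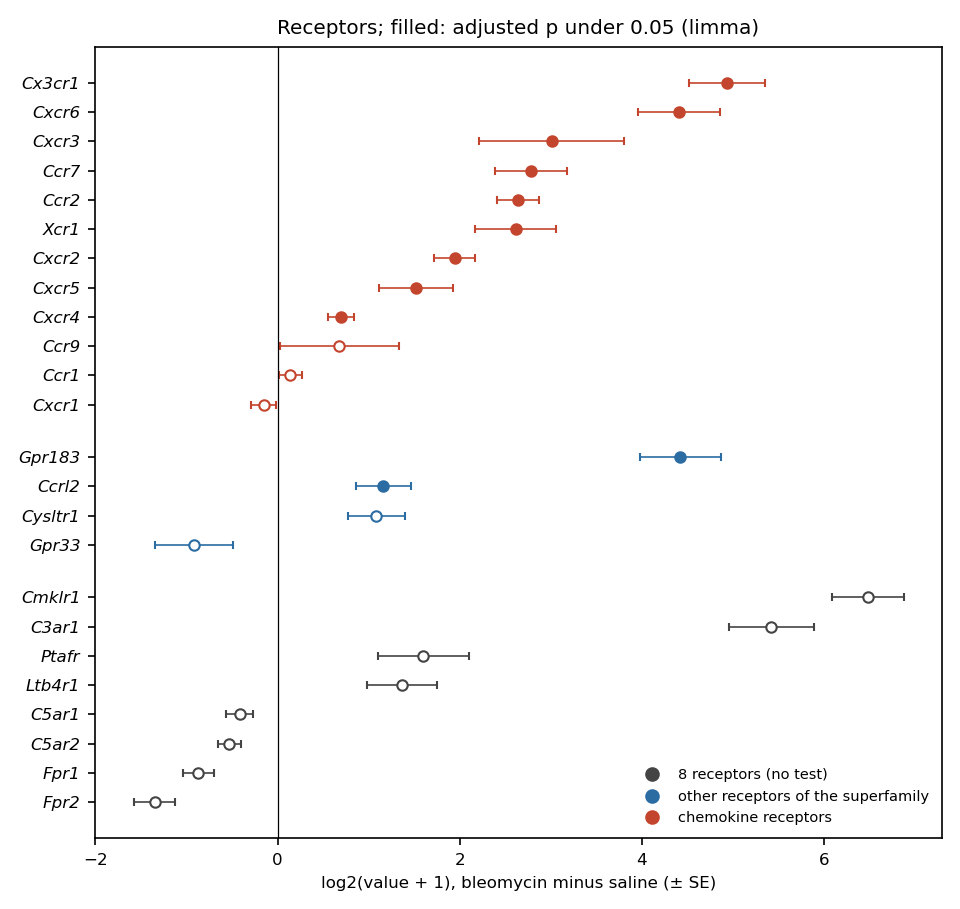
Log2 difference (bleomycin minus saline, ± SE) of the 8 receptors (no test, open points), and of other receptors of the superfamily and chemokine receptors. Filled points passed limma's test at an adjusted p under 0.05; the 8 receptors lay on both sides of 0, from -1.35 to 6.48, and the called chemokine receptors lay to the right.

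Downstream of the receptors, 24 of 26 listed genes of Gi signalling were tested, 3 rose and 1 fell, and 20 were not called (median -0.14). Over all tested genes 9.76% were called higher and 3.90% lower. Gnai2, the main Gi alpha subunit of leukocytes, was at 34419, 34591 and 35396 in saline and 32829.8, 29589 and 31181 after bleomycin (-0.16 ± 0.11, limma adjusted p = 0.429). The genes that rose encode beta or gamma subunits: Gng12 rose from 628, 794 and 445 to 2438, 2651 and 3327 (2.20 ± 0.22, limma adjusted p = 0.000463), Gnb4 rose by 2.27 ± 0.42 (limma adjusted p = 0.00843) and Gng2 by 0.57 ± 0.11 (limma adjusted p = 0.00889). Pik3r6, a regulatory subunit of the phosphoinositide 3-kinase that Gi-coupled receptors switch on, fell by 0.47 ± 0.12 on the log2 scale (limma adjusted p = 0.0322, named after its value was seen). Without bleomycin replicate 2 or bleomycin replicate 5 only Gng12 was called, and the call of Pik3r6 was lost without any 1 library.

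Of 15 genes that switch receptors off, all 15 were tested, 4 rose and 2 fell (median -0.08). Rgs10, which speeds the shut-off of Gi subunits, rose from 619, 753 and 791 to 2153, 1948 and 2094 (1.52 ± 0.13, limma adjusted p = 0.000261). Arrb1, the arrestin that uncouples and internalizes receptors, rose from 1277, 951 and 987 to 2490.1, 3013 and 3471 (1.48 ± 0.16, limma adjusted p = 0.00082). Its relative Arrb2 was at 6179, 6710.0 and 8002 in saline and 7284, 5853 and 6491 after bleomycin (-0.09 ± 0.14, limma adjusted p = 0.76). Rgs18 rose from 0, 0 and 7.42 to 23.4, 24.2 and 22.4 (3.58 ± 0.86, limma adjusted p = 0.0263). This call was lost without saline replicate 1 or 2, with quantile normalization and with edgeR on the recovered reads (adjusted p up to 0.0706). No saline library of Rgs18 reached the filter value, so this gene, among the 4 that rose, could only be called higher. Rgs1 rose by 1.06 ± 0.26 (limma adjusted p = 0.0274). Rgs14 and Rgs19 fell by 0.56 ± 0.14 and 0.37 ± 0.10 on the log2 scale (limma adjusted p = 0.0271 and 0.0448). Rgs1, Rgs14 and Rgs19 were named after their values were seen. The count of 6 became 2 when bleomycin replicate 2, bleomycin replicate 5 or saline replicate 1 was left out and 3 when saline replicate 2 was left out, with Rgs10 and Arrb1 called each time.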

How the data were processed

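Lavage cells of 3 saline and 3 bleomycin samples were sequenced. The build mm10 and the tools STAR 2.5.2b, HTSeq 0.6.0, bcl2fastq 2.18.0.12 and DESeq2 are named in the submitters' processing notes. Annotation release, strand setting and filters were not given in the sources used here, so levels of overlapping genes are uncertain. The deposited values are a normalized signal: dividing by the value of 1 read gave whole reads for 100% of values above 0 (within 0.05 of a read).

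Positions, exon lengths and coding sequences came from a GRCm38 annotation, promoters from RefSeq (GRCm38.p6). Symbols were found for 22873 of 22962 identifiers. Genes that reached a value of 10 in 3 or more libraries (13512) were tested with limma 3.58.1 (R 4.3.3) on log2(value + 1), two-sided, with an intensity trend and Benjamini-Hochberg adjustment. The fit was tested on simulated data. On the recovered reads edgeR 4.0.16 called 1821 genes and DESeq2 1.42.0 called 2313. Also tried were a minimum of 50, no filter, pseudocounts of 0.5 and 5, quantile and TMM scaling, robust variances, no trend, exon length trend removal, a replicate block and leaving out each library.

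The receptors, lists and tests were chosen with earlier results of these data known. The rule for naming took the 8 receptors, 18 ligand, enzyme, receptor and signalling genes whatever their result, the 3 called genes with the smallest p of each list and the 3 genes most like each receptor. Marker genes and others said to be named after their values were seen fall outside it. A few genes under the rule are not reported here by name or in the figures, but are in the counts.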

Additional observations from a re-analysis of the deposited data

How the results depend on the processing

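Over the alternatives the differences of the 8 receptors kept their direction, and 141 of 143 values stayed within the spread between replicates. The 2 that moved were C5ar1 with the replicate block (-0.21, beside -0.42) and Ltb4r1 with quantile normalization (0.85, beside 1.37). The replicate block takes its group difference from replicates 1 and 2 of each group only. Ltb4r1 has no value at a minimum of 50. Leaving out each library gave 4.90 to 5.81 for C3ar1, -0.50 to -0.27 for C5ar1, -0.56 to -0.48 for C5ar2, -1.07 to -0.74 for Fpr1, -1.56 to -1.18 for Fpr2, 6.15 to 6.93 for Cmklr1, 1.09 to 1.62 for Ltb4r1 and 1.19 to 2.21 for Ptafr. It gave 664 to 1675 called genes overall (1846 with every library), 1 to 3 for anaphylatoxin genes, 1 to 2 for formyl peptide ligands, 3 to 7 for leukotriene and platelet activating factor genes, 3 to 4 for chemerin genes, 1 to 3 for other receptors, 6 to 9 for chemokine receptors, 1 to 3 for Gi signalling and 2 to 5 for desensitisation.

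Replicate numbers 1 and 2 occur in both groups, but nothing in the labels ties them to a shared animal or batch. Deviations of same-numbered libraries correlated at -0.20 and 0.02. In the replicate block, saline replicate 3 and bleomycin replicate 5 had no partner and did not enter the group difference. Its calls therefore differ from those of the main fit also because fewer libraries carried the comparison. With the replicate block 1147 genes were called (953 higher and 194 lower), 2 of the formyl peptide list and 2 of Gi signalling, and the calls of Alox5 (limma adjusted p = 0.121), Pik3r6, Gng2, Rgs14 and Rgs19 were lost while C3 was called lower. Without an intensity trend 1 other receptor and 3 desensitisation genes were called. Small differences changed sign: Alox5ap to -0.0034 without saline replicate 2 and -0.0259 without bleomycin replicate 1 (up to 0.241 without a library), Arrb2 to 0.0202 with the block and 0.0173 without saline replicate 3 (down to -0.169), and C3 to 0.0452 without saline replicate 2 (down to -0.732). The cause was not tested. The low saline counts of Cmklr1 and Ltb4r1 limit the precision of their differences.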
